A study of Homo sapiens with 6 samples.

Results

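CDKN1A, MDM2, GADD45A, GADD45B, CCNG1, CCNG2, PLK2, SESN1 and ZMAT3 are genes that the tumour suppressor p53 can switch on, or that slow or stop the cell cycle. These 9 genes, of 22077 in the count table, were taken by their symbols. They were selected on fold changes already measured in the same 6 libraries, so their differences between the groups are given below as a description, and whether edgeR called them is stated for orientation and supports nothing. All 9 passed the filter on low counts, with 128 to 2811 counts per library.

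RNA was sequenced from a human hepatoma line in which transketolase (TKT), an enzyme of the non-oxidative pentose phosphate pathway, was overexpressed, and from control cells of the same line. There were 3 libraries of TKT overexpression and 3 of control. The labels name the line Hu7, while the text of the study names Huh7 in its results and HCCLM3 in its methods for the RNA-seq. The labels give the genotype of the controls as wild type, and the control titles begin with VC. The text of the study does not say whether the control cells carried an empty plasmid. The libraries are called Huh7 here. By the methods, a TKT expression plasmid that carries GFP and puromycin resistance was introduced by transfection and the cells were selected, so the overexpression is of a plasmid copy in a selected population. Huh7 is a human hepatocellular carcinoma line. The labels number the samples of each group as replicates and do not say whether they came from separate cultures, so p-values measure the spread between these samples, which may be technical.

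p53 is a transcription factor that is stabilised by DNA damage and other stress, and it raises genes that halt the cell cycle, repair DNA or start cell death. CDKN1A encodes p21, the CDK inhibitor through which p53 stops cells before S phase, and MDM2 encodes the ubiquitin ligase that removes p53, which closes a feedback loop. GADD45A and GADD45B encode small stress proteins that bind cell cycle and MAP kinase partners. Both GADD45 genes, CDKN1A and CCNG2 also respond to other factors, such as FOXO proteins, SMADs, NF-kB and the factors of the integrated stress response.

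Library totals lay between 30148788 and 37096156 counts. TKT itself had 9402, 9549 and 9392 CPM on overexpression and 497, 469 and 515 CPM in control, a 19.1-fold difference (log2 fold change 4.26, standard error 0.04). CPM are counts relative to the library total, corrected by TMM factors. Of 12 hepatocyte genes 11 passed the filter, ALB had 237975 to 296682 counts, and APOB had at most 6 counts in any library. Of 11 markers of leukocytes, endothelium, fibroblasts and stellate cells, 3 passed the filter, led by PECAM1 with 472 to 717 counts, and PTPRC, CDH5 and DCN were not in the table. The summed level of these markers was 18.4 to 21.2 CPM on TKT overexpression and 19.0 to 22.5 CPM in control. The summed hepatocyte level was 21253 to 21641 CPM on TKT overexpression and 20703 to 21101 CPM in control, and its part in the results was not tested. Among the hepatocyte genes, FGB (log2 fold change 0.50, adjusted p = 8.85e-10 by edgeR's quasi-likelihood test over all tested genes) and APOH (0.30, adjusted p = 4.81e-05) rose and HNF4A (-0.15, adjusted p = 0.0072) and APOA2 (-0.13, adjusted p = 0.0274) fell. Genes at an adjusted p under 0.05 are said to be called. HNF4A was not called without TKT replicate 1, and APOA2 was called only without TKT replicate 2 or control replicate 2 among the 6 fits that left out a library.

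RefSeq promoter windows (build GRCh38.p14, 250 bases before to 50 after a transcription start) were available for 8 of the 9 genes, 15 windows in all, and none for GADD45A. Of these, 5 windows are printed: those of CDKN1A and GADD45B, which differed in opposite directions, those of PLK2 and CCNG2, which differed in the direction of GADD45B, and that of SESN1 for its p53 decamer. Capitals mark matches, on either strand, to the p53 decamer (the 10-base unit, paired in p53 response elements), TATAAA (the TATA box), CCAAT (the CCAAT box), GGGCGG (the GC box) and CACGTG (the E-box). GTAAACA and TGACGTCA were also searched and were in no window of these genes, and TGANTCA was found in 2 windows of MDM2 that overlap each other. Neighbouring GGGCGG matches can share bases, as the run of capitals in CDKN1A nearest the start does.
CDKN1A, chr6:36678464-36678763, plus strand: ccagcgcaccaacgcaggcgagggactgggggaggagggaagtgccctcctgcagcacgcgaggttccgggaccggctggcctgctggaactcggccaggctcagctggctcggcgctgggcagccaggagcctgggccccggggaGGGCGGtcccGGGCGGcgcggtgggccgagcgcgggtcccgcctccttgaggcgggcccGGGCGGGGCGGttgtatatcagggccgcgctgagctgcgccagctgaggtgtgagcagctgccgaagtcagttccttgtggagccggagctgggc
GADD45B, chr19:2475877-2476176, plus strand: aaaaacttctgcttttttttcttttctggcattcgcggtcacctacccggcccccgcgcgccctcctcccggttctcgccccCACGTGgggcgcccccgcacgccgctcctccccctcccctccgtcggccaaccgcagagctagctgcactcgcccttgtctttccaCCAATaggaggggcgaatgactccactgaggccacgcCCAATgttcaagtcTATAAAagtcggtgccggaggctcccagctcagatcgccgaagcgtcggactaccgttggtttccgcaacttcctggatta
PLK2, chr5:58460037-58460336, minus strand: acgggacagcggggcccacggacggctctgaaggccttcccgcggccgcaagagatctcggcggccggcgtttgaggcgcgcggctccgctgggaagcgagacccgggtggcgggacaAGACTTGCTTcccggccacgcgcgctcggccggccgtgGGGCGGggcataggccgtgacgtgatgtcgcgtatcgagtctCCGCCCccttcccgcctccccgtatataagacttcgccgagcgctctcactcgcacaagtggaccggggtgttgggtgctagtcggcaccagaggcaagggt
CCNG2, chr4:77156957-77157256, plus strand: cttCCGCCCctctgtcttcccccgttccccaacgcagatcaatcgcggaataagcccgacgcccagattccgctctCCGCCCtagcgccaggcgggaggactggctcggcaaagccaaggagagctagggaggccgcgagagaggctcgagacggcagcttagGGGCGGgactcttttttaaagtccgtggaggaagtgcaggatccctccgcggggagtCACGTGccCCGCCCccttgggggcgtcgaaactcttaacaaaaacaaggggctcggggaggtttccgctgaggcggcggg
SESN1, chr6:109008939-109009238, minus strand: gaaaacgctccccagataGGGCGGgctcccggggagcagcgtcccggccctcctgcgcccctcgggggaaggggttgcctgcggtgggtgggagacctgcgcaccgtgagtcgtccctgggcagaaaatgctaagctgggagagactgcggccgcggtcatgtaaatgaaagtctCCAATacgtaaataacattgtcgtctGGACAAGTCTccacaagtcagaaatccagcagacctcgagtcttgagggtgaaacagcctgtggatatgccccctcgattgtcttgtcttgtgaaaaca

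An exact match to the p53 decamer was in 2 of the 15 windows. These were that of PLK2 (AGACTTGCTT, 132 bases before the start) and the SESN1 window printed (GGACAAGTCT, 49 bases before the start). Only exact matches were searched, so p53 response elements that depart from the pattern were not marked. A window without a match, those of MDM2 included, can therefore still hold a p53 response element. PLK2 was higher on TKT overexpression and SESN1 did not separate the groups. Of all 35116 RefSeq windows, 6.63% held an exact match to the decamer. CDKN1A and CCNG2 each held 4 GGGCGG matches, a motif in 45.0% of all windows. GADD45B had a TATAAA box 31 bases before the start, 2 CCAAT boxes and a CACGTG, motifs in 11.5%, 34.6% and 7.26% of all windows, and CCNG2 shared the CACGTG. The printed windows had a GC content of 74.3% in CDKN1A, 70.0% in PLK2, 64.7% in CCNG2, 61.7% in GADD45B and 58.0% in SESN1, beside a median of 58.7% over all windows. Motifs farther away lie outside these windows.

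Of the 9 genes, 4 were higher on TKT overexpression and 3 were lower at an adjusted p under 0.05 in edgeR, and 2 did not pass. Over all 14162 tested genes, 10.6% were called at this threshold, 5.69% higher and 4.94% lower. Because the genes were chosen by the same contrast, nothing is read from their share. The higher genes were PLK2, GADD45A, GADD45B and CCNG2, and the lower ones were CDKN1A, MDM2 and CCNG1. In 8 of the 9 genes the CPM values of the groups did not overlap, which was so for 28.0% of all tested genes. The median log2 fold change was 0.17 over the 9 genes and 0.00 over all tested genes. In these bulk libraries, a change in the number of cells that express a gene and a change in RNA per cell cannot be told apart.

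**Figure D1:**
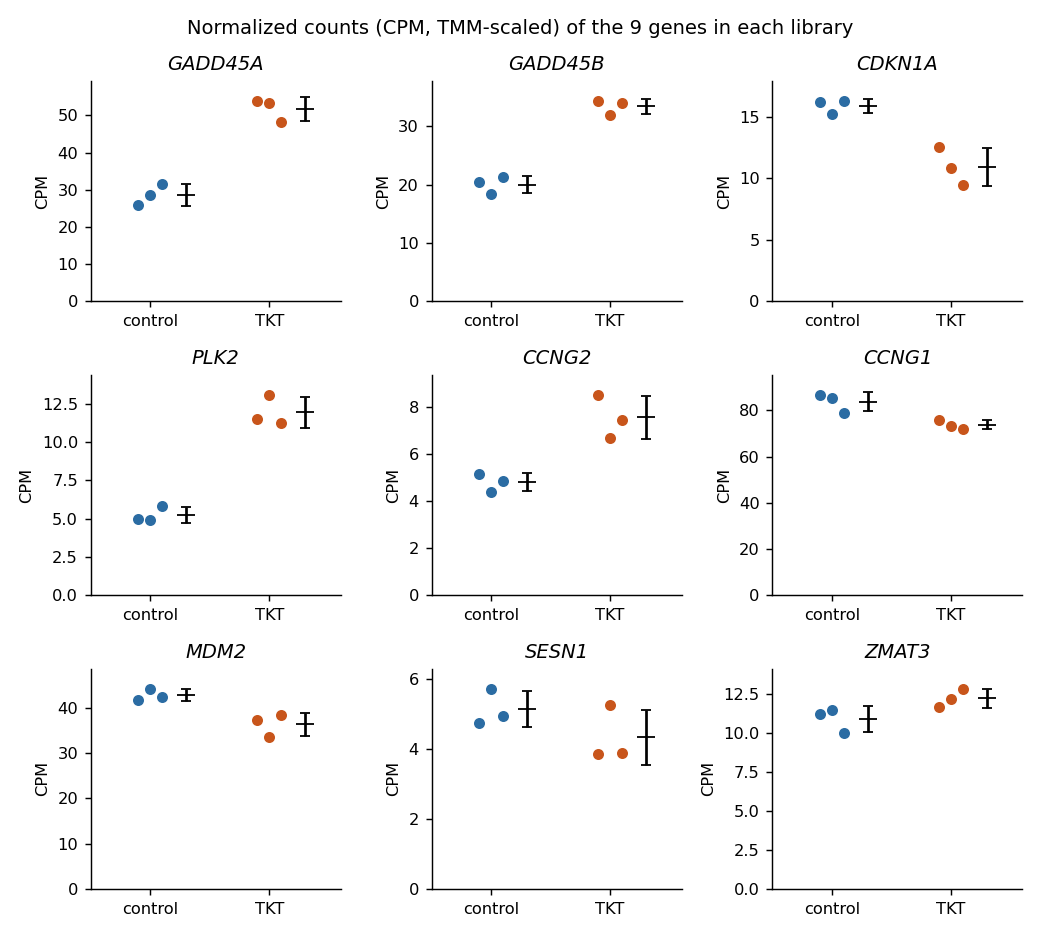
Normalized counts (CPM, TMM-scaled, axes from 0) of the 9 genes, with control libraries in blue and TKT-overexpressing libraries in orange, replicates 1 to 3 from left to right, and the mean with its SD as a black bar. The groups are apart in every gene but SESN1, with PLK2, GADD45A, GADD45B and CCNG2 higher and CDKN1A, MDM2 and CCNG1 lower on TKT overexpression.

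CDKN1A (chr6:36676460-36687339, plus strand, GRCh38), the p21 gene, had 12.5, 10.8 and 9.49 CPM on TKT overexpression and 16.2, 15.2 and 16.3 CPM in control. All 3 TKT-overexpressing libraries lay below all 3 controls, and they were more spread than the controls (coefficient of variation 14.0% against 3.62%). The means were 10.9 ± 1.54 and 15.9 ± 0.575 CPM (SD, n = 3), which was 1.45-fold lower (log2 fold change -0.54, standard error 0.11). Leaving out a library gave log2 fold changes from -0.65 to -0.45. Its counts were 312 to 546 per library. The antisense gene DINOL overlaps CDKN1A and had 0 to 2 counts.

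GADD45A (chr1:67685061-67688338, plus strand), a stress sensor that can bind CDK1 and the MAP kinase kinase kinase MAP3K4, had 53.8, 53.2 and 48.1 CPM on TKT overexpression and 25.8, 28.5 and 31.6 CPM in control. The lowest TKT-overexpressing library was well above the highest control. The means were 51.7 ± 3.13 and 28.6 ± 2.88 CPM (SD, n = 3), 1.81-fold higher (log2 fold change 0.85, standard error 0.07). GADD45B (chr19:2476122-2478259, plus strand), its paralog, which also responds to TGF-beta and NF-kB, had 34.3, 32.0 and 34.0 CPM against 20.4, 18.3 and 21.2 CPM. The groups of GADD45B were apart by more than the spread within either. The means were 33.4 ± 1.27 and 20.0 ± 1.50 CPM (SD, n = 3), 1.67-fold higher (log2 fold change 0.74, standard error 0.08). Without each library in turn the log2 fold change stayed between 0.78 and 0.93 for GADD45A and between 0.68 and 0.78 for GADD45B. No annotated gene overlaps either gene.

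Taken within a library, where depth and scaling cancel, the GADD45 genes and CDKN1A moved apart. These are ratios of counts, which also hold the lengths of the transcripts, so the groups are to be compared and not the genes. GADD45A had 4.29, 4.93 and 5.07 counts per CDKN1A count on TKT overexpression and 1.59, 1.87 and 1.94 in control. GADD45B had 2.73, 2.96 and 3.58 counts per CDKN1A count on TKT overexpression and 1.26, 1.20 and 1.31 in control. Neither ratio overlapped between the groups, which follows from the CPM values given above. Both GADD45 genes were higher, and CDKN1A lower, in every TKT-overexpressing library than in every control. As the genes were chosen on these fold changes, the ratios are a description and no further evidence. GADD45A per GADD45B was 1.57, 1.67 and 1.42 against 1.26, 1.55 and 1.49, and these values did overlap. CDKN1A per MDM2 was 0.337, 0.322 and 0.248 against 0.388, 0.345 and 0.383, so CDKN1A was lower relative to MDM2 too, without overlap.

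PLK2 (chr5:58453982-58460260, minus strand) encodes a polo-like kinase with a role in centriole duplication. It had 11.5, 13.1 and 11.3 CPM on TKT overexpression and 4.97, 4.90 and 5.81 CPM in control, so its groups were far apart. The means were 12.0 ± 0.996 and 5.23 ± 0.507 CPM (SD, n = 3), 2.28-fold higher (log2 fold change 1.19, standard error 0.13), the largest difference of the 9. PLK2 alone of the 9 genes passed the thresholds of the study in edgeR (adjusted p under 0.05 and absolute log2 fold change over 1). Of all tested genes, 0.727% passed them in edgeR. The log2 fold change lay between 1.12 and 1.27 with each library left out.

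CCNG1 and CCNG2 encode G-type cyclins that are not known for driving the cell cycle through a partner CDK. CCNG1 is a p53 target whose protein brings the phosphatase PP2A to MDM2, and CCNG2 is raised in arrested cells, also by FOXO factors. CCNG2 (chr4:77157151-77433388, plus strand) had 8.50, 6.68 and 7.45 CPM on TKT overexpression and 5.12, 4.38 and 4.86 CPM in control. Every TKT-overexpressing library exceeded every control, and the means were 7.54 ± 0.915 and 4.79 ± 0.378 CPM (SD, n = 3), 1.58-fold higher (log2 fold change 0.66, standard error 0.15). Without TKT replicate 1, its highest library, the log2 fold change was 0.56 and CCNG2 was not called. CCNG1 (chr5:163437569-163446151, plus strand) had 75.9, 73.4 and 71.9 CPM on TKT overexpression and 86.7, 85.2 and 79.0 CPM in control. Its groups lay close together without overlap, 73.7 ± 1.98 against 83.6 ± 4.10 CPM (SD, n = 3), 1.13-fold lower (log2 fold change -0.18, standard error 0.05). Of the 6 fits that left out a library, CCNG1 was called only in that without control replicate 3. CCNG2 counts per CCNG1 count were 0.112, 0.0910 and 0.104 on TKT overexpression and 0.0591, 0.0514 and 0.0615 in control.

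MDM2 (chr12:68808176-68850686, plus strand) had 37.2, 33.5 and 38.3 CPM on TKT overexpression and 41.8, 44.2 and 42.4 CPM in control. The groups did not overlap, at 36.4 ± 2.52 and 42.8 ± 1.25 CPM (SD, n = 3), and the log2 fold change was -0.24 (standard error 0.06). The log2 fold change ranged from -0.27 to -0.18 with each library left out. MDM2 was not called without TKT replicate 1 or without TKT replicate 2.

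SESN1 (chr6:108986437-109094819, minus strand) encodes a sestrin, which restrains the growth kinase mTORC1. It had 3.86, 5.25 and 3.89 CPM on TKT overexpression and 4.74, 5.73 and 4.95 CPM in control. TKT replicate 2 lay above 2 of the 3 controls, so the groups overlapped, and the log2 fold change was -0.25 (standard error 0.18). ZMAT3 (chr3:179017223-179072279, minus strand) encodes an RNA-binding zinc finger protein. It had 11.7, 12.2 and 12.9 CPM against 11.3, 11.5 and 9.98 CPM, which came close without overlap (log2 fold change 0.17, standard error 0.11). SESN1 had 128 to 174 counts per library.

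CDKN1A, CCNG2, MDM2 and SESN1 overlap annotated genes on the other strand (1, 4, 2 and 1 genes), and whether the counting used strand is not given in the sources used here, so reads of these pairs may not be told apart. Among the genes that overlap MDM2, that of carboxypeptidase M had 494 to 719 counts per library.

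Levels are comparable between genes only per length, for which the deposited FPKM were used. In control, CCNG1 (26.9 ± 1.42 FPKM, SD, n = 3) was highest, followed by GADD45A (14.8 ± 1.47), GADD45B (9.30 ± 0.624), CDKN1A (5.28 ± 0.147), MDM2 (5.13 ± 0.192), PLK2 (1.12 ± 0.103), ZMAT3 (0.962 ± 0.078), SESN1 (0.703 ± 0.077) and CCNG2 (0.642 ± 0.046). The neighbours CDKN1A and MDM2, and SESN1 and CCNG2, overlapped between libraries, and PLK2 and ZMAT3 were close without overlap. On TKT overexpression GADD45A (26.8 ± 1.34 FPKM) was above CCNG1 (23.8 ± 0.558), GADD45B had 15.6 ± 0.746, and MDM2 (4.37 ± 0.353) had a higher mean than CDKN1A (3.64 ± 0.490), with libraries that overlapped. PLK2 was at 2.56 ± 0.185 FPKM, ZMAT3 (1.08 ± 0.063) and CCNG2 (1.01 ± 0.127) overlapped, and SESN1 was lowest at 0.593 ± 0.102 FPKM. In order of level, GADD45A and CCNG1 thus changed places without overlap in either group.

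**Figure D2:**
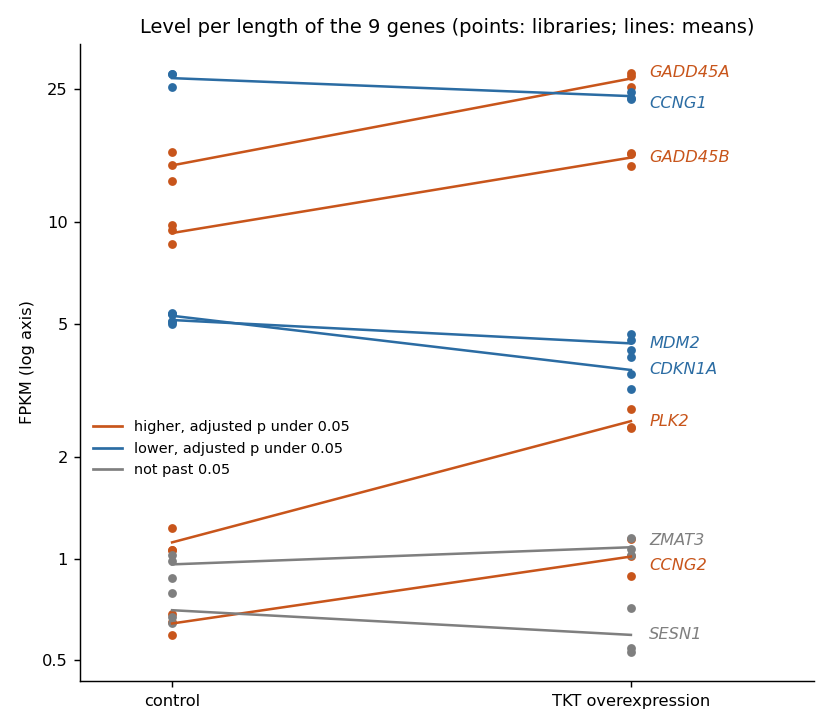
Deposited FPKM of the 9 genes (log axis) in control and TKT-overexpressing libraries, where points are libraries, lines join the group means, and colour gives the edgeR call (orange higher, blue lower, grey not past 0.05). GADD45A crosses CCNG1, from 14.8 to 26.8 FPKM, and the mean of CDKN1A falls below that of MDM2.

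The genes whose log2 CPM most resembled CDKN1A over the 6 libraries, of 11224 compared, were C21orf58 (Pearson r = 0.995), CDKN2C (r = 0.991) and DDX46 (r = 0.988). For GADD45A they were FGG, SNHG1 and MRPL58 (r of 0.997 to 0.999), and for GADD45B they were C8A, MCU and PRSS23 (r of 0.997 to 0.999). CCNG2 was most like H2BC12, FBXW4 and AKR1D1 (r of 0.994 to 0.997), and SESN1 was most like ALDH18A1, CLCC1 and NFX1 (r of 0.980 to 0.985). With 3 libraries a group, a difference between the groups that 2 genes share can by itself give a high r. The genes most like SESN1 differed little between the groups (log2 fold change -0.03 for ALDH18A1, -0.07 for CLCC1 and -0.04 for NFX1). Genes above an r of 0.95 numbered 129 for CDKN1A, 216 for GADD45A, 235 for GADD45B, 111 for CCNG2 and 15 for SESN1.

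The direction of CDKN1A, MDM2 and the GADD45 genes was set beside that of 48 other p53 target genes, of which 47 were in the table and 41 were tested. Of the 41, 10 rose (24.4%, beside 5.69% of all tested genes), 1 fell (2.44%, beside 4.94%) and 30 did not pass the test. Their median log2 fold change was 0.00, with 20 below 0 and 21 above, as over all tested genes (0.00). The groups did not overlap in 19 of the 41, and in 28.0% of all tested genes. Of those that rose, GDF15, a secreted stress cytokine, had the smallest p, with 192, 186 and 180 CPM on TKT overexpression and 103, 91.3 and 92.6 CPM in control (log2 fold change 0.96, standard error 0.05, adjusted p = 8.04e-12 in edgeR). GDF15 also responds to factors other than p53.

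Smaller rises passed in genes that restrain proliferation, BTG2 (log2 fold change 0.52, adjusted p = 0.00329) and BTG1 (0.32, adjusted p = 0.00162), and in ABHD4 (0.44, adjusted p = 1.46e-06) and EPHA2 (0.27, adjusted p = 4.06e-05), all in edgeR. These 4 genes and GDF15 were called with each library left out. TP53INP1, a stress protein that acts with p53, rose by 0.69 (adjusted p = 0.00967), a call lost without control replicate 3. PTP4A1 (1.03, adjusted p = 0.0242) was called only without TKT replicate 2 or control replicate 3 among the 6 fits that left out a library, PMAIP1 (0.37, adjusted p = 0.0414), the NOXA gene, only without control replicate 2, and RAP2B (0.17, adjusted p = 0.0469) only without TKT replicate 1. KITLG fell by 0.29 (adjusted p = 0.0161), a call lost without TKT replicate 1, without TKT replicate 2 and without control replicate 2. PTP4A1, with only 27 to 99 counts per library, was among the 2 of the 41 past the thresholds of the study. Of all tested genes, 0.727% passed them in edgeR.

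Of the much-used p53 targets named by rule, GDF15, BTG2 and TP53INP1 rose, as given above, and 8 were tested and did not pass. Over all tested genes, 10.6% were called. In log2 fold change, with the standard error in parentheses, BAX stood at -0.04 (0.05), BBC3, the PUMA gene, at 0.10 (0.14), DDB2 at -0.18 (0.10), XPC at -0.04 (0.07), RRM2B at -0.17 (0.12) and FDXR at -0.19 (0.12). PPM1D, a phosphatase that turns p53 signalling off, stood at 0.16 (standard error 0.08), and TIGAR, a regulator of glycolysis and the pentose phosphate pathway, at 0.34 (standard error 0.14, adjusted p = 0.12 in edgeR). FAS had at most 4 counts and SESN2 at most 2 in any library, and neither was tested. Among the 9 genes and the 41 tested other targets, PLK2 had the highest log2 fold change and CDKN1A had the lowest. The 9 were chosen with these fold changes known, so nothing is read from their place in this range.

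**Figure D3:**
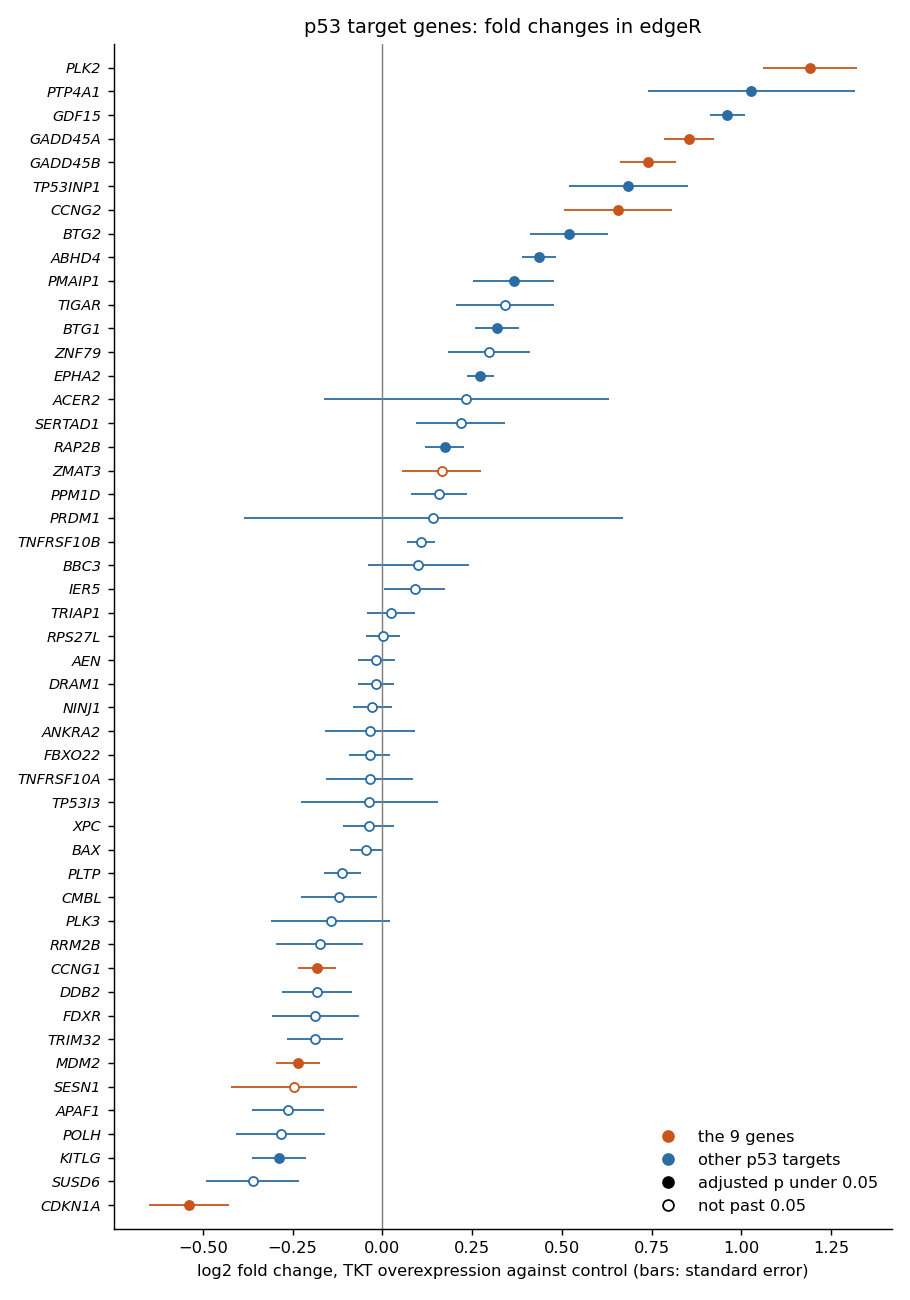
Log2 fold changes (x axis, TKT overexpression against control, bars are standard errors) of the 9 genes in orange and of the tested other p53 targets in blue (1 is not drawn), filled where the adjusted p in edgeR was under 0.05. The 9 genes, chosen with these fold changes known, lie across the whole range, from CDKN1A at -0.54 to PLK2 at 1.19. Of the 41 others, 30 are open symbols.

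MDM4, the partner of MDM2 that holds p53 in check, had overlapping groups (log2 fold change 0.04, standard error 0.09). Of 23 tested genes of the p53 family and its regulators, 3 rose (13.0%, beside 5.69% of all tested genes), none fell (beside 4.94%) and the median was -0.00. Those that rose were RCHY1, a ubiquitin ligase that acts on p53 (log2 fold change 0.42, adjusted p = 0.00852), the deacetylase SIRT1 (0.35, adjusted p = 0.0172) and the acetyltransferase CREBBP (0.19, adjusted p = 0.0412). RCHY1 was lost without TKT replicate 3, SIRT1 was called only without TKT replicate 2 or control replicate 2, and CREBBP only without control replicate 2, so that the list held 0 to 4 calls with a library left out.

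Of the 6 tested CDK inhibitors other than CDKN1A, 1 rose (16.7%, beside 5.69% of all tested genes), 2 fell (33.3%, beside 4.94%) and the median was -0.02. CDKN2C, the p18 gene, had 10.6, 9.27 and 8.54 CPM on TKT overexpression and 13.7, 13.6 and 13.5 CPM in control (log2 fold change -0.52, standard error 0.11, adjusted p = 0.00379 in edgeR). CDKN2B, the p15 gene, rose from 21.6 ± 1.59 to 28.6 ± 1.75 CPM (SD, n = 3; log2 fold change 0.40, adjusted p = 0.00223 in edgeR). CDKN3, a phosphatase that acts on CDKs, fell by 0.17 (adjusted p = 0.0425) and was called only without control replicate 2 among the fits that left out a library. CDKN1B, the p27 gene and nearest relative of CDKN1A, stood at 0.08 (standard error 0.05, adjusted p = 0.395 in edgeR).

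Among 8 tested paralogs of the 9 genes, PLK1, the polo-like kinase of mitosis, fell by 0.22 (adjusted p = 0.00169 in edgeR). This 1 call was 12.5% of the list, beside 4.94% of all tested genes, the others did not pass, and the median of the list was -0.02. The log2 fold change was -0.14 for PLK3 (standard error 0.17) and -0.02 for SESN3 (standard error 0.08). GADD45G had at most 2 counts in any library. Of 11 genes of the MAP kinase routes that GADD45 proteins join, none rose, MAP2K6 (log2 fold change -0.37, adjusted p = 0.00179) and MAPK12 (-0.18, adjusted p = 0.029, called only without control replicate 2 among the fits that left out a library) fell (18.2% of the list, beside 4.94% of all tested genes), and the median was -0.11.

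DREAM is a complex that shuts genes of S phase and mitosis in resting cells. The 20 listed cell cycle genes that p53 can repress through CDKN1A and DREAM were all tested. Of these 11 fell (55.0%, beside 4.94% of all tested genes), none rose, and the median log2 fold change was -0.13. The falls were small, between -0.25 and -0.12, and all 20 genes had a value below 0, a direction that each of them kept under the other scalings and 18 to 20 of them with a library left out. TOP2A fell by 0.25 (adjusted p = 0.00014), CCNB2 by 0.23 (adjusted p = 0.00329), PLK1 by 0.22 (adjusted p = 0.00169) and MCM5 by 0.21 (adjusted p = 0.00197), all in edgeR. Calls numbered 6 to 11 with each library left out, 6 without TKT replicate 1 and 6 without control replicate 1. CDKN1A itself was lower on TKT overexpression (log2 fold change -0.54), and whether this route acted on the 20 genes was not tested.

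FOXO factors raise arrest and stress genes independently of p53. Of 15 tested FOXO target genes, 8 rose (53.3%, beside 5.69% of all tested genes), CCNG2 included, and 1 fell (6.67%, beside 4.94%). The other 6 did not pass, and the median was 0.30. These values count CCNG2 and SESN1, which belong to the 9 genes chosen on these same fold changes. The share and the median are therefore in part set by that choice. TXNIP, the thioredoxin-interacting protein that responds to glucose, had 24.2, 26.3 and 26.6 CPM on TKT overexpression and 14.1, 12.0 and 12.7 CPM in control (log2 fold change 0.99, standard error 0.09, adjusted p = 1.28e-07 in edgeR). SOD2 (0.30, adjusted p = 5.84e-06), CITED2 (0.37, adjusted p = 1.62e-05) and BCL6 (0.59, adjusted p = 0.000221) rose as well, and all 4 were called with each library left out.

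Of 22 tested factors known to act on CDKN1A, GADD45A or GADD45B without p53, 8 rose (36.4%, beside 5.69% of all tested genes). Of the rest, 1 fell (4.55%, beside 4.94%) and 13 did not pass, and the median of the list was 0.15. The list was not split into factors that raise these genes and factors that lower them. Its counts therefore give no direction for CDKN1A, GADD45A or GADD45B. ATF3, a stress-induced factor, had 26.4, 25.8 and 25.5 CPM on TKT overexpression and 8.08, 6.81 and 9.65 CPM in control (log2 fold change 1.66, standard error 0.11, adjusted p = 6.33e-10 in edgeR). JUN, a subunit of AP-1, had 170, 175 and 168 CPM against 101, 97.5 and 102 CPM (log2 fold change 0.77, standard error 0.04, adjusted p = 3.96e-11 in edgeR). KLF4 (1.41, adjusted p = 0.000163) and KLF6 (0.40, adjusted p = 0.000464) rose too. These 4 factors were called with each library left out.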

How the data were processed

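Gene expression was measured by RNA-seq (paired-end, Illumina NovaSeq) in 3 libraries of TKT overexpression and 3 of control. According to the labels and methods, the authors trimmed reads with fastp 0.22.0, aligned them to hg38 with HISAT2 2.1.0 and counted them with featureCounts. The deposited counts are whole numbers per gene symbol without normalization. The authors also deposited FPKM, which are scaled by library and gene length. Strand and multi-mapping options and the annotation are not given in the sources used here.

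The counts of 22077 genes were filtered (filterByExpr, minimum count of 10), scaled by TMM and fitted without pairing by the robust quasi-likelihood method of edgeR 4.0.16 under R 4.3.3, which left 14162 tested genes. Genes were called at a Benjamini-Hochberg adjusted p under 0.05 over all tested genes. The common biological coefficient of variation was 0.113. Replicates of a group differed by 7.30 to 10.1 chi-square per degree of freedom, so no library was a copy of another. Alternatives were DESeq2 1.42.0, other scalings and filters, limma 3.58.1 on log2(FPKM + 1) and log2(FPKM + 0.1), the replicate number as a block, each library left out, and other thresholds. The scripts were tested on simulated counts.

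The 9 genes and the gene lists were chosen with earlier results of these data known, so neither the 9 genes nor a list gives independent evidence of its direction. Genes named are the 9, TKT, MDM4, CDKN1B, the paralogs GADD45G, SESN2, SESN3 and PLK3, much-used p53 targets, every called other p53 target, the 4 called genes with the smallest p of each further list, and the 3 genes most correlated with CDKN1A, GADD45A, GADD45B, SESN1 and CCNG2. ALB, APOB, PECAM1, PTPRC, CDH5, DCN, DINOL and the carboxypeptidase M gene were named after their values were seen. Loci are from GENCODE 29. Of the genes that this rule takes, 2 are not reported here.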

Additional observations from a re-analysis of the deposited data

How the results depend on the processing

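The 9 fold changes kept their sign in all 135 values from 15 alternative fits and moved by more than 1 SD in 2, both with limma on log2(FPKM + 1), which shrinks low genes by its construction: 0.29 for CCNG2 and 0.75 for PLK2. As the genes were chosen on these libraries, this is no sign of stability. Other scalings shifted the median of all genes by at most 0.02 log2. Other p53 targets called (11) numbered 7 with limma on either FPKM scale, 9 with DESeq2, 2 at the thresholds of the study, 19 at an unadjusted p under 0.05, and 8 to 9 with a library left out. The 11 falls among genes repressed through DREAM numbered 5 to 11 over all alternatives. All genes called (1505) numbered 827 and 826 with limma, 103 in edgeR at the thresholds of the study, and 3366 at an unadjusted p. With a library left out they numbered 791 (without TKT replicate 1) to 1586 (without control replicate 2), with 881 without control replicate 1. The cause of this spread was not tested. The study itself, with DESeq2, reported more genes than 103 at its thresholds, and the reason was not tested. With the replicate number as a block, 7 other p53 targets and 697 genes were called, and MDM2 and CCNG1 were not. Deviations of same-numbered libraries correlated at 0.01, -0.09 and 0.05, which shows no strong pairing by number. These correlations over many genes cannot exclude a weak pairing. Of 525 values of 35 named called genes, none changed sign and 78 lost the threshold. Of 12 named genes not called, 3 changed sign with a library left out, MDM4 (-0.034 to 0.15), SESN3 (-0.062 to 0.011) and XPC (-0.095 to 0.028).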
